A study of Mus musculus with 6 samples.

Results

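Mitochondrial ribosomal proteins are the protein subunits of the ribosome that works inside mitochondria. They were followed in the cochlea, the coiled part of the inner ear that senses sound. The mice were DBA/2J males with no treatment given in the labels, aged 7 weeks (3 samples) or 36 weeks (3 samples). Mice of this inbred strain go deaf progressively from a young age, and the study compared the ages to find transcripts that differ in age-related hearing loss. The genes were chosen by name: every gene whose symbol starts with Mrpl or Mrps and a digit and that has a probe set carrying that symbol alone, with the probe set of highest mean signal over the 6 arrays standing for the gene. This gave 74 genes of 12393 named by such probe sets, 47 named for the large subunit (Mrpl) and 27 for the small subunit (Mrps). All 74 probe sets lay above the filter on dim signals and were tested.

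The mitochondrial ribosome translates the few proteins still encoded in mitochondrial DNA, all of them membrane subunits of the respiratory chain and ATP synthase. Its RNA comes from mitochondrial DNA, but its proteins are encoded in the nucleus, made in the cytosol and imported. Some have counterparts in bacterial ribosomes and others are found only in mitochondria. Hearing depends on this machinery in humans: variants of the mitochondrial small ribosomal RNA cause deafness, and variants of MRPS7 and MRPS2 have been found in families with hearing loss.

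Total RNA of each sample was hybridised to 1 single-colour Affymetrix array. The deposited table holds linear signals of 22626 probe sets on a common scale, and the median signal lay between 766.3 and 859.3 on the 6 arrays. Differences are 36 weeks minus 7 weeks on the scale log2(signal + 50), followed by their standard error (SE); each age has n = 3 arrays. A fold is the ratio of the mean signals of both ages. A gene is said to have risen or fallen where the Benjamini-Hochberg adjusted p of limma over all 13575 tested probe sets was under 0.05. The labels do not say that the samples came from separate animals, so these p-values measure only the spread between the samples, which may be technical. Of the defining cochlear markers, the matrix gene Coch had a mean signal of 82144 ± 2449 (SD, n = 3) at 7 weeks and 21556 ± 918 (SD, n = 3) at 36 weeks. The outer hair cell motor gene Slc26a5 and the hair cell factor Pou4f3 were below the signal filter and were not tested. Unlike Coch, both were higher on every array of 36 weeks than on any of 7 weeks. Mean signals at 7 and 36 weeks were 253.7 and 331.6 for Slc26a5, and 176.6 and 685.9 for Pou4f3.

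Of the 74 mitochondrial ribosomal genes, 15 fell between 7 and 36 weeks, 0 rose and 59 did not pass by limma, a share of 20.3% falling. Of all tested probe sets 33.6% passed, 17.3% falling and 16.2% rising. At an unadjusted p under 0.05, 17 members were lower and 2 higher. The median log2 difference of the members was -0.14, with quartiles of -0.31 and -0.02, whereas all tested probe sets had a median of 0.02 and quartiles of -0.30 and 0.33. With each array centred on its median these medians were -0.24 and -0.09, and 18 members fell and 0 rose. With this centring 22.5% of all tested probe sets fell, and the share of lower among all calls went from 51.7% to 64.6%. Without centring, the lower quartiles were close and the upper quartile of the members was the lower one. Of the members 58 of 74 (78.4%) had a difference below 0, against 48.8% of all tested probe sets. The signals of the ages did not overlap in 20 members that were lower (27%, against 23.9% of all tested) and in 5 that were higher (6.76%, against 23.4%). Of the 74 members 9 fell by at least 1.5-fold, as did 10.4% of all tested probe sets. With each of the 6 arrays left out in turn, 8 genes passed every time (Mrps6, Mrpl18, Mrpl42, Mrpl13, Mrps34, Mrpl51, Mrpl44 and Mrpl15), and the other 7 were lost at least once.

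**Figure D1:**
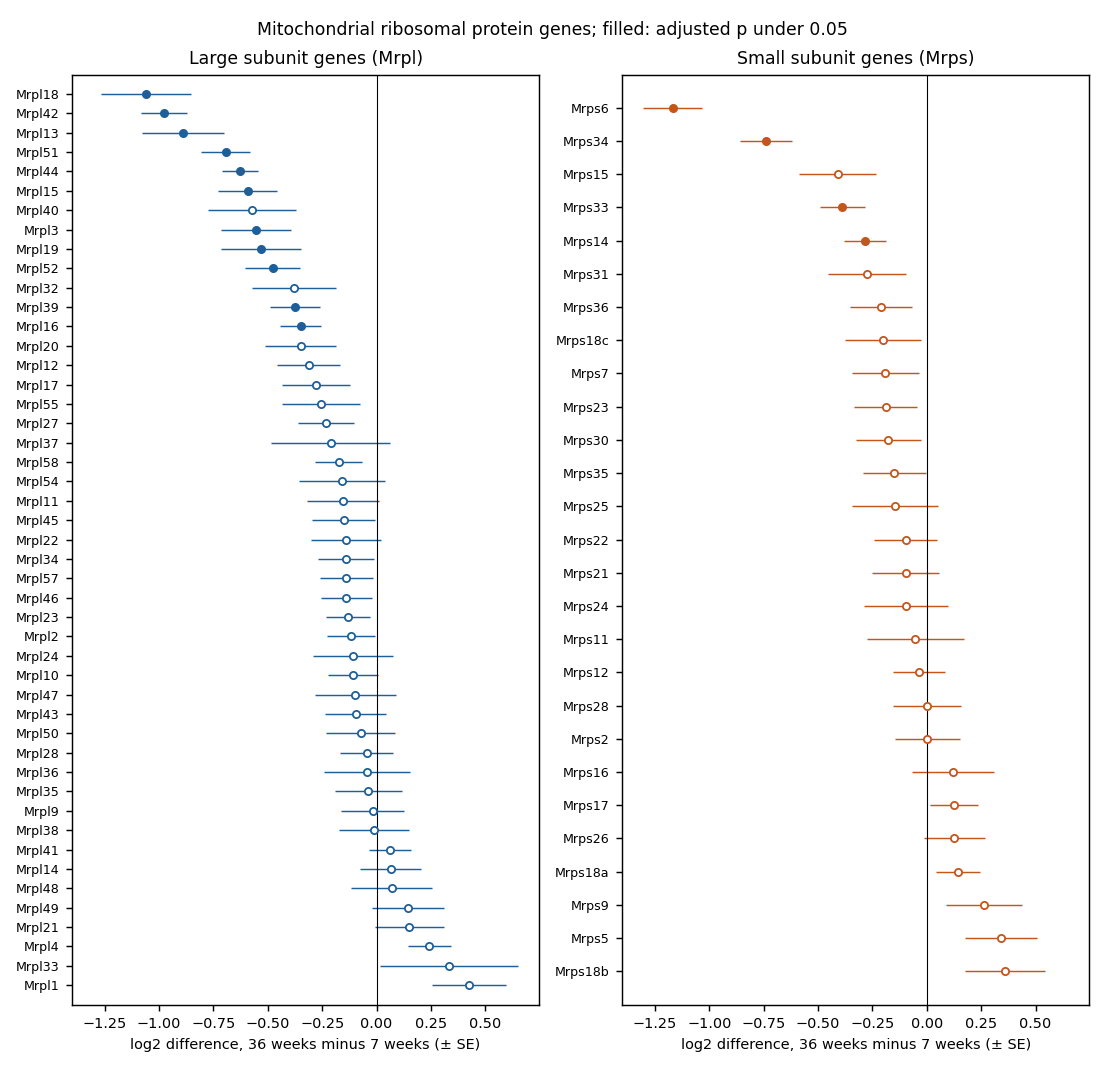
Log2 difference (36 weeks minus 7 weeks, horizontal axis) of each of the 47 large subunit genes (left) and 27 small subunit genes (right), with bars of 1 SE and n = 3 arrays per age. Filled points passed the threshold; all 15 lie to the left of 0, and the differences range from -1.17 for Mrps6 to 0.42 for Mrpl1.

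In the large subunit, which holds the peptidyl transferase centre, 11 of 47 genes fell (23.4%, against 17.3% of all tested probe sets). The smallest p was that of Mrpl42, a subunit found only in mitochondria. Its signals were 4047.4, 4230.9 and 3927.7 at 7 weeks and 2026.2, 1891.3 and 2212.2 at 36 weeks. The ages were well apart and the mean fell 1.99-fold, a log2 difference of -0.98 ± 0.10 with a limma adjusted p of 4.7e-05. Mrpl44, a protein with a ribonuclease III-like fold near the exit of the peptide tunnel, gave 6678.5, 7219.4 and 6667.3 at 7 weeks and 4354.6, 4561.8 and 4338.4 at 36 weeks. Each age formed a tight set of its own, and the difference was -0.63 ± 0.08 (limma adjusted p of 0.00018). Mrpl51, another subunit without a bacterial counterpart, had signals of 6310.2, 6727.6 and 5223.9 at 7 weeks and 3458.8, 4106.2 and 3628.9 at 36 weeks. The highest array of 36 weeks stayed below the lowest of 7 weeks, and the difference was -0.69 ± 0.11.

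Mrpl18, which belongs to the central protuberance of the large subunit, had the largest fall of that subunit. It gave 1213.2, 1795.3 and 1288.2 at 7 weeks and 686.9, 542.3 and 738 at 36 weeks, a 2.18-fold lower mean and a difference of -1.06 ± 0.21 (limma adjusted p of 0.0028). The second array of 7 weeks was the highest, and the ages did not overlap. Mrpl13, a counterpart of a bacterial large subunit protein, ran from 4533.9 to 6481.2 at 7 weeks and from 2252.7 to 3928.8 at 36 weeks. Its arrays were spread at both ages but did not overlap, with a difference of -0.89 ± 0.19. Mrpl15, also of bacterial descent, ran from 2648.3 to 2961.2 at 7 weeks and from 1586.3 to 2189.8 at 36 weeks, a difference of -0.59 ± 0.14. The other large subunit genes that fell were Mrpl3, Mrpl52, Mrpl39, Mrpl16 and Mrpl19, with differences of -0.55, -0.48, -0.37, -0.35 and -0.53. Mrpl16 was lost without array 3 of 7 weeks (adjusted p of 0.0557), Mrpl52 without 1 of 3 arrays (up to 0.0567), Mrpl3 and Mrpl39 without 1 of 4 (up to 0.0879 and 0.103).

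The threshold separated 2 large subunit genes of like size. Mrpl19, the last to pass, had signals of 1410.1, 1219 and 1481.4 at 7 weeks and 739.1, 1050.8 and 1035.9 at 36 weeks (-0.53 ± 0.18, limma adjusted p of 0.047). Mrpl40 of the central protuberance, just outside, gave 1211.7, 1355.6 and 1413 at 7 weeks and 736.1, 1179.4 and 764.9 at 36 weeks (-0.57 ± 0.20, limma adjusted p of 0.0502). Both were lower on every array of 36 weeks than on any of 7 weeks. Mrpl19 was lost without any 1 of the arrays other than array 2 of 36 weeks (up to 0.142), and Mrpl40 passed (adjusted p of 0.0115) without array 2 of 36 weeks. Mrpl12, the stalk protein that contacts translation factors, was also lower on every array of 36 weeks, 1403.1 to 1486.4 against 1560.6 to 2116.1, with a difference of -0.31 ± 0.14 that did not pass (limma adjusted p of 0.122).

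In the small subunit, which reads the messenger RNA, 4 of 27 genes fell (14.8%, against 17.3% of all tested probe sets). Mrps6, the counterpart of a bacterial protein of the platform, showed the largest fall of all 74 members. Its signals were 5576.1, 5710.3 and 5760.4 at 7 weeks and 3161.9, 2173.6 and 2271.7 at 36 weeks. The young arrays were nearly equal, every old array was far below them, and the mean fell 2.24-fold (-1.17 ± 0.13, limma adjusted p of 8e-05). Mrps34, a mitochondria-specific subunit needed for a stable small subunit, gave 3748.3, 4558.8 and 3624.3 at 7 weeks and 2509.7, 2387.7 and 2158.8 at 36 weeks. The ages did not overlap and the difference was -0.74 ± 0.12.

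The other small subunit falls were smaller. Mrps33, a mitochondria-specific protein of the head, ran from 3083.8 to 3451.3 at 7 weeks and from 2361.8 to 2553.9 at 36 weeks (-0.39 ± 0.10, lost at an adjusted p of 0.0524 without array 3 of 7 weeks). Mrps14, the counterpart of a bacterial head protein, ran from 4624.5 to 5308.4 and then from 3903.9 to 4520.5 (-0.28 ± 0.10, limma adjusted p of 0.047). The ages were close in Mrps14, and it did not pass when 1 of 4 arrays was left out (up to 0.14). Of the members linked to hearing loss in humans, Mrps7 had signals of 1465.9, 1641.2 and 2042.3 at 7 weeks and 1376.9, 1544 and 1538.2 at 36 weeks, which overlapped (-0.19 ± 0.15). Mrps2 gave 1344.2, 1712.9 and 1831.7 at 7 weeks and 1509.6, 1649.6 and 1701.2 at 36 weeks, with means of 1629.6 and 1620.1 (0.00 ± 0.15). Mrps12, of the decoding centre, ran from 2845.4 to 3714.6 and from 2990.4 to 3110.6 (-0.04 ± 0.12). None of these 3 passed, and with SEs near 0.15 a change of their size was not detectable with 3 arrays per age.

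**Figure D2:**
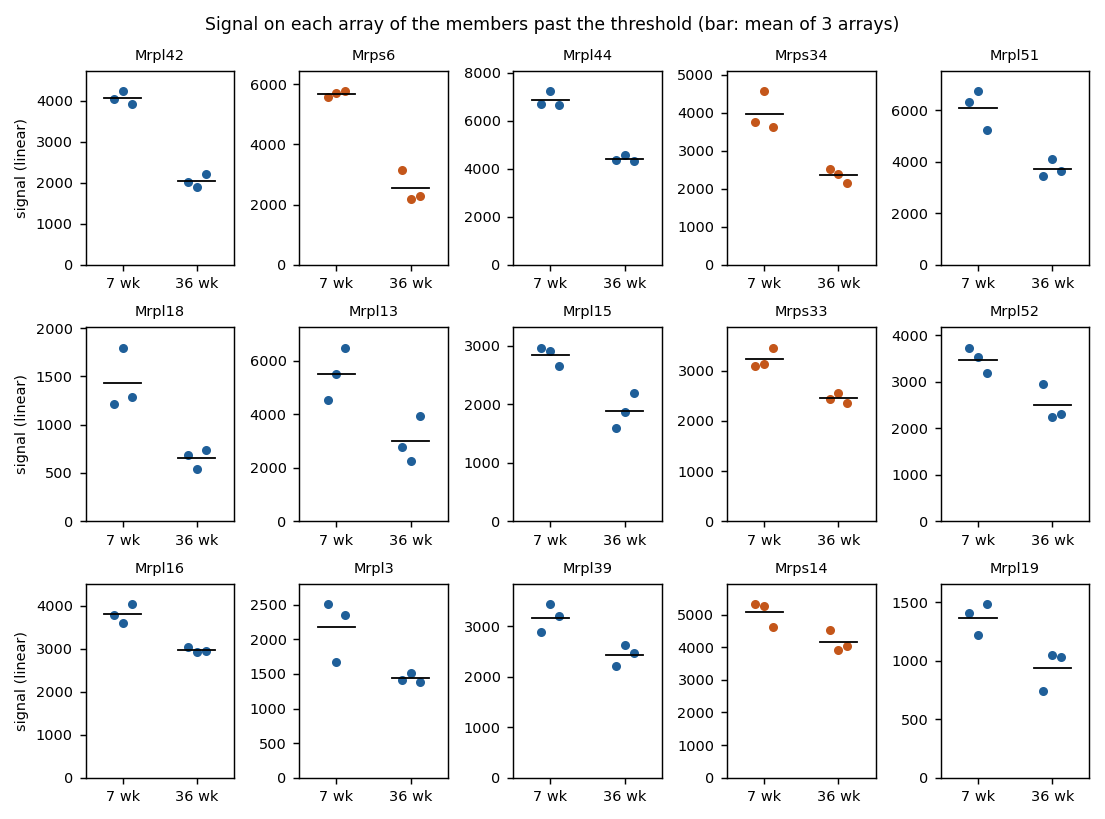
Linear signal on each array (vertical axis, from 0) at 7 and 36 weeks for the 15 members that fell, ordered by p, with bars at the mean of 3 arrays; blue is the large and orange the small subunit. In every panel the highest array of 36 weeks lies below the lowest of 7 weeks.

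Members higher at 36 weeks were few and small in size. The 5 whose arrays of 36 weeks all lay above those of 7 weeks were Mrpl1, Mrpl4, Mrps5, Mrps18a and Mrps18b. Mrpl1, of the stalk that guides used tRNA out of bacterial ribosomes, had signals of 1022.5, 1118.5 and 833.6 at 7 weeks and 1487.3, 1261.7 and 1272.9 at 36 weeks. Its difference of 0.42 ± 0.17 was the largest upward value but had a limma adjusted p of 0.0798. Mrpl4 had 0.24 ± 0.10 (limma adjusted p of 0.0856), and the other 3 had differences of 0.34, 0.14 and 0.36 and did not pass. These 5 were named after their values were seen. A second probe set of Mrps5, below the signal filter and not tested, went the other way. It gave 431.3, 389.5 and 405.6 at 7 weeks and 192.7, 69.9 and 199.2 at 36 weeks.

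Large and small subunit genes were compared across arrays. The mean log2 level of the 47 large subunit genes, set to 0 at 7 weeks, was -0.24, -0.20 and -0.23 on the arrays of 36 weeks, beyond the spread at 7 weeks (SD 0.01, n = 3). That of the 27 small subunit genes was -0.06, -0.17 and -0.16, with an SD of 0.05 at 7 weeks. The first array of 36 weeks was the highest for the small subunit and the lowest for the large. The large minus small difference ran from -0.04 to 0.04 at 7 weeks and from -0.18 to -0.03 at 36 weeks, so the ages overlapped. The difference between the subunits' medians, -0.04, turned to 0.01 without array 1 of 36 weeks. By medians over genes the subunits stood at -0.14 and -0.10. No test was made of a score over chosen genes, and no difference between the subunits is claimed. In structures of the ribosome Mrps30 and Mrps18a sit in the large subunit despite their names, and Mrps36 was later assigned to a dehydrogenase complex. Placed that way, 11 of 49 large (22.4%) and 4 of 24 small subunit genes (16.7%) fell, against 17.3% of all tested probe sets.

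**Figure D3:**
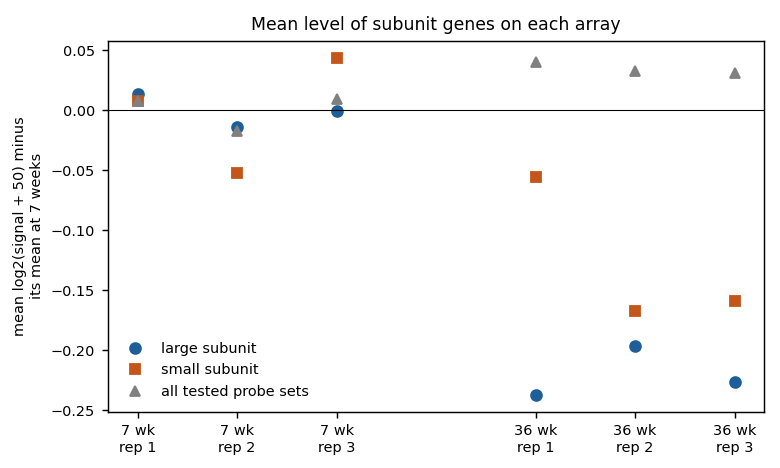
Mean log2(signal + 50) of the large subunit genes (circles), the small subunit genes (squares) and all tested probe sets (triangles) on each array, minus its own mean at 7 weeks. Both subunits lie below 0 on the 3 arrays of 36 weeks, while all tested probe sets lie slightly above it.

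Grouped by descent, 8 of 46 genes with a bacterial counterpart fell (17.4%, median -0.11), as did 7 of 28 genes without one (25%, median -0.17). Of all tested probe sets 17.3% fell, a share nearly equal to that of the genes with a counterpart. Small subunit genes with a bacterial counterpart had the median nearest 0, -0.04, with 2 of 17 falling, and the 10 without one had a median of -0.18, with 2 falling. Grouped by place, 2 of 7 genes of the central protuberance fell (Mrpl18 and Mrpl52, median -0.23). At the exit tunnel 2 of 8 fell (Mrpl44 and Mrpl39, median -0.15), and all 8 were below 0. The stalk genes Mrpl10, Mrpl11 and Mrpl12 had a median of -0.16, and 0 of 3 passed in limma, with 0 at an unadjusted p under 0.05. The descent and place of each gene were assigned from general knowledge, and the groups were not tested against each other.

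Many members had further probe sets, which measure other stretches of the transcript. The 74 genes had 127 probe sets, 41 genes having 1. Of the 53 others 28 were bright enough to be tested, in 21 genes: 4 fell, 0 rose and 18 had the sign of the gene's brightest probe set. Among the 15 genes that fell, 8 had a second tested probe set, and in 2 of them a second one also fell. These were Mrpl13, from 1649.5, 2112.9 and 1811.9 to 456.2, 1295.9 and 1097.9 (-1.04 ± 0.31), and Mrpl15, from 1262.5, 1133.3 and 905.7 to 539.2, 666.6 and 821 (-0.67 ± 0.22). Other probe sets of Mrpl51, Mrpl44, Mrpl15 and Mrpl39 pointed upward without passing, with differences of 0.32, 0.25, 0.23 and 0.12. The dim Mrpl51 probe set gave 853, 771.2 and 773.1 at 7 weeks and 946.5, 1053.9 and 1026.7 at 36 weeks, which did not overlap. For Mrpl51, Mrpl44 and Mrpl39 the brightest probe set was the only one that fell. Conversely Mrpl11 and Mrps24, which did not pass on their brightest probe set (-0.16 and -0.10), fell on another (-0.55 ± 0.15 and -0.55 ± 0.19). With a gene's probe sets averaged, 8 of the 15 still passed. Mrpl42, Mrpl44, Mrpl52 and Mrpl39 did not (-0.33, -0.21, -0.25 and -0.13, limma adjusted p of 0.281, 0.163, 0.32 and 0.325), and the averages of Mrpl15, Mrpl3 and Mrpl19 lay below the signal filter. The second probe set of Mrpl42 was below the signal filter at 51.8 to 141.2.

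**Figure D4:**
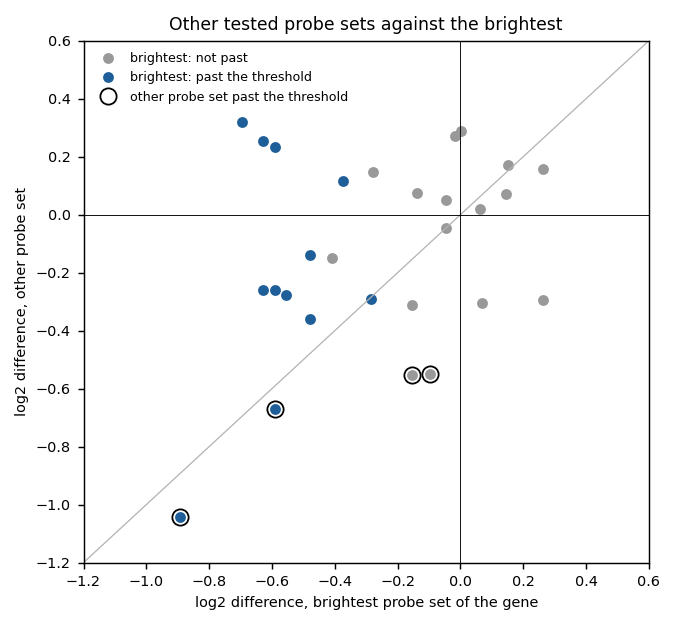
Log2 difference (36 weeks minus 7 weeks) of the 28 other tested probe sets (vertical axis) against that of the brightest probe set of the same gene (horizontal axis); the diagonal marks equal values. Blue points belong to genes that fell on the brightest probe set and ringed points are other probe sets that fell; 4 blue points lie above 0.

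Promoters of these genes are known for sites of NRF1 and of the ETS factor GABPA, which drive nuclear genes of mitochondrial proteins. RefSeq promoters (build GRCm38.p6, 250 bases before to 50 after the start) were found for 65 of the 74 genes. Exact matches on both strands were counted for the NRF1 motif, CCGGAAG (ETS/GABPA), AAGATGGC (YY1) and AAGGTCA (ESRRA). The ETS/GABPA letters stood in 23 of 65 member promoters (35.4%), against 15% of 9882 promoters of genes on the array and 9.12% of all 27025 in the table. Those of NRF1 stood in 12 (18.5%, against 8.63% and 4.78%), those of YY1 in 11 (16.9%, against 3.98% and 2.88%) and those of ESRRA in 4 (6.15%, against 3.53% and 4.66%). Of the 11 members that fell and had a promoter entry, 5 held the ETS/GABPA letters and 2 those of NRF1. Of the 54 that did not pass, 18 and 10 held them. The YY1 letters stood in 1 of the 11 and 10 of the 54, and those of ESRRA in 0 and 4. A match is a description of letters and not a site in use.

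The 250 bases before the start are shown for 5 members that fell, 5′ to 3′ on the gene's strand with matches in capitals. Mrps6 (chr16:92058086-92058335, plus strand) and Mrpl42 (chr10:95501950-95502199, minus strand) had the smallest p of their subunits and hold none of the 4 motifs here. Mrpl44 (chr1:79775768-79776017, plus strand) has the NRF1 letters from position -35, counted from the start. In Mrpl39 (chr16:84735245-84735494, minus strand) they read the same on both strands from -125. Mrpl51 (chr6:125191950-125192199, plus strand) has the ETS/GABPA letters from -90.
Mrps6: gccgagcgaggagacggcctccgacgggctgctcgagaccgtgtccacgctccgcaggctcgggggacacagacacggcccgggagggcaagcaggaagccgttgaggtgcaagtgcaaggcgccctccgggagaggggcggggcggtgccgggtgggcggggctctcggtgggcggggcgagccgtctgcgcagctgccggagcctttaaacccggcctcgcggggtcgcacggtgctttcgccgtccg
Mrpl42: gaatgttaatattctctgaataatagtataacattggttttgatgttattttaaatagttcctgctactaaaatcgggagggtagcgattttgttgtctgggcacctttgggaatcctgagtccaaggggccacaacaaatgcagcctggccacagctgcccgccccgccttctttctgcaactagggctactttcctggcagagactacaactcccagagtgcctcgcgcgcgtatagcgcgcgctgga
Mrpl44: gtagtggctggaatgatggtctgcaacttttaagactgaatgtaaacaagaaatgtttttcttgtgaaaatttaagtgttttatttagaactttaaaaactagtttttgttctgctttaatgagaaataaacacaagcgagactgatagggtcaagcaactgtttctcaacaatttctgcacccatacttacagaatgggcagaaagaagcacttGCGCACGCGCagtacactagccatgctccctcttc
Mrpl39: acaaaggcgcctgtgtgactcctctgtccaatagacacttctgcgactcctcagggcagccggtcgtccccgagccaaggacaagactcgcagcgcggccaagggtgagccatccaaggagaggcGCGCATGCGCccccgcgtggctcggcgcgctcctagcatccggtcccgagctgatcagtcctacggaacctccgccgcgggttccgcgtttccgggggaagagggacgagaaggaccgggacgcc
Mrpl51: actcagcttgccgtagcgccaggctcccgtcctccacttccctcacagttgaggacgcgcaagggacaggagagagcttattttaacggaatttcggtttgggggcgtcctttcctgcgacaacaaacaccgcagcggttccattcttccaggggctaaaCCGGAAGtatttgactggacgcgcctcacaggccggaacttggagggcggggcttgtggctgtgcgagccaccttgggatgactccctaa

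Some members share a promoter region with a gene read the other way. Of the 65 members with a RefSeq promoter, 23 had a divergent neighbour starting within 1000 bases. How common such neighbours are among all genes was not counted. Both genes of 11 distinct pairs were tested, and in 1 pair both were members. Of the other 10 neighbours 1 fell, 3 rose and 6 did not pass. Of all tested probe sets 17.3% fell and 16.2% rose. Mrpl51, which fell, starts 614 bases from Ncapd2, a condensin subunit, which rose by 0.71 ± 0.17 (limma adjusted p of 0.00812). Mrpl18, which fell, starts 238 bases from Tcp1, a subunit of a cytosolic chaperonin, which had a difference of 0.14 ± 0.08 and did not pass. Mrps12 and Sars2, the mitochondrial seryl-tRNA synthetase, start 147 bases apart and had differences of -0.04 and -0.04. Mrpl46 and Mrps11 start 42 bases apart and had -0.14 and -0.05. Mrpl47 did not pass (-0.10 ± 0.18), while its neighbour Ndufb5, of respiratory complex I, fell by 0.45 ± 0.07. The other neighbours that rose were Pnpla7, a lysophospholipase, by 0.71 ± 0.18 beside Mrpl41, and Fau, which encodes a cytosolic ribosomal protein, by 0.37 ± 0.09 beside Mrpl49. Mrpl41 and Mrpl49 did not pass (0.06 and 0.14). The neighbours were looked up after the members' values were known.

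Of the other genes of mitochondrial gene expression few passed, in both directions. Over all lists of these genes and their regulators 5 fell and 4 rose. Among all tested probe sets the shares were 17.3% falling and 16.2% rising. Of 3 tested mitoribosome proteins with other names, Chchd1 of the small subunit fell from 2846.6, 2984 and 2721 to 2180.5, 1980.9 and 2016.2 (-0.46 ± 0.11, limma adjusted p of 0.00764). Dap3 and Ptcd3, also of the small subunit, had 0.30 and -0.21 and did not pass. Of 9 translation factors 1 rose and 0 fell in limma, with 2 and 1 at an unadjusted p under 0.05. The one that rose was Tufm, the factor that brings aminoacyl-tRNA to the ribosome. Its signals were 1182.3, 864.5 and 998.2 at 7 weeks and 1590.3, 1493.2 and 1868.7 at 36 weeks, a 1.63-fold higher mean (0.68 ± 0.17, limma adjusted p of 0.00991). Tufm was thus higher on the arrays on which 15 subunits of the ribosome were lower. Gfm2, of ribosome recycling, and Mtif2, of initiation, had 0.49 ± 0.18 and -0.49 ± 0.19 and did not pass.

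Of 11 tested assembly factors 1 fell and 0 rose by limma, with 1 and 0 at an unadjusted p under 0.05. It was Nsun4, which methylates the small ribosomal RNA and joins the subunits, from 982.2, 1043.6 and 1099.6 to 659.7, 702.9 and 590.5 (-0.64 ± 0.19, limma adjusted p of 0.0222). Mrm3 and Mtg1 had -0.32 and 0.17 and did not pass. None of 6 tested mitochondrial aminoacyl-tRNA synthetases passed in limma, and 0 had an unadjusted p under 0.05. Fars2, Iars2 and Tars2 had the smallest p, with 0.28, -0.25 and -0.26. Of 16 tested genes of mitochondrial DNA and RNA maintenance 2 fell and 1 rose, 12.5% and 6.25%. The shares of all tested probe sets were 17.3% and 16.2%. Slirp, which stabilises mitochondrial messengers, fell by 0.45 ± 0.10 and Grsf1, of the RNA granules where the ribosome is assembled, by 0.84 ± 0.21. Polrmt, the mitochondrial RNA polymerase, rose by 0.50 ± 0.13, from 1924.2 to 2397 at 7 weeks to 2658.5 to 3300.8 at 36 weeks.

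Of the 8 tested regulators of nuclear genes for mitochondria, 1 fell, 2 rose and 5 did not pass. These were 12.5% falling and 25% rising, against 17.3% and 16.2% of all tested probe sets. Ppargc1a, the coactivator of mitochondrial biogenesis, fell from 1898.3, 1921.9 and 1760.9 to 1156.1, 1086.2 and 997.5 (-0.76 ± 0.14, limma adjusted p of 0.0017). Its relative Ppargc1b rose from 3260.6, 3109.9 and 2476.6 to 4660.9, 4761.7 and 5253.5 (0.73 ± 0.12), and Gabpb1, the partner of GABPA, rose by 0.70 ± 0.21. The arrays of both coactivators were apart by age in opposite directions. Gabpb1 no longer passed without any 1 of 4 arrays (array 1 or 2 of 7 weeks, array 1 or 3 of 36 weeks). Nsun4 was lost without array 2 or 3 of 7 weeks or array 3 of 36 weeks.

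**Figure D5:**
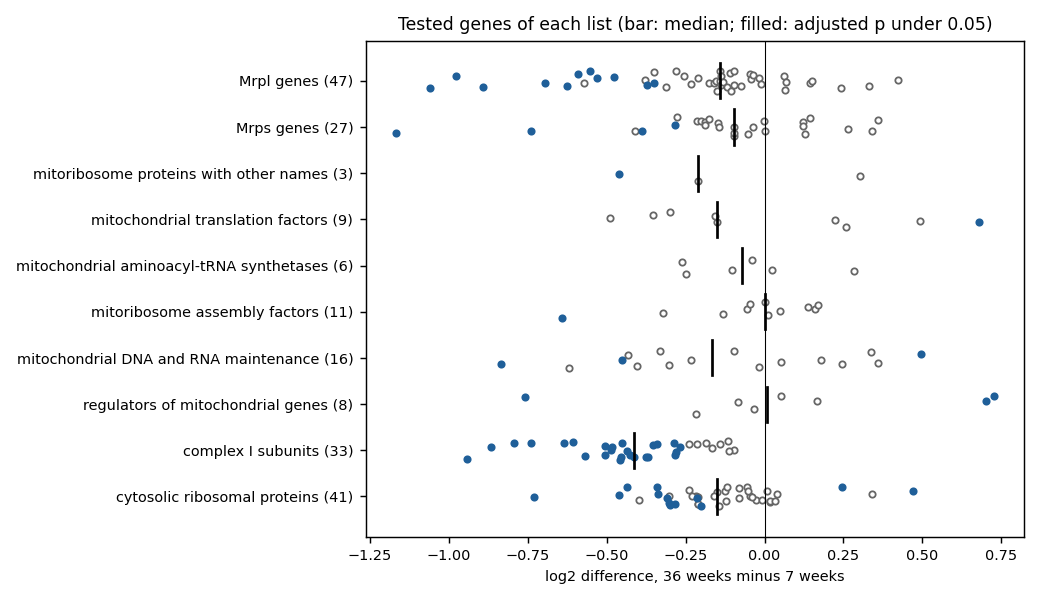
Log2 difference (36 weeks minus 7 weeks, horizontal axis) of each tested gene of 10 lists, with the number of genes in brackets, bars at medians and filled points past the threshold. Points of the Mrpl and Mrps genes spread to the left, complex I lies wholly left of 0, and the translation factors and regulators lie on both sides.

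Complex I, whose mitochondrially encoded subunits are made on this ribosome, is given for scale. Of 33 nuclear genes named for its subunits 25 fell (75.8%) and 0 rose by limma, with 26 and 0 at an unadjusted p under 0.05. Their median was -0.41. They were taken by symbol alone (Nduf, then a, b, c, s or v and a digit). Whether each protein, Ndufa4 among them, belongs to complex I was not checked. The median SE was 0.08, smaller than the 0.15 of the mitochondrial ribosomal genes, so a difference of given size passed more easily. Ndufb9, Ndufa13 and Ndufb11 fell by 0.87, 0.79 and 0.94. Of 41 proteins of the cytosolic ribosome 11 fell (26.8%) and 2 rose, with a median of -0.15 and a median SE of 0.08. Of all tested probe sets 17.3% fell and 16.2% rose. Rpl13a and Rps29 fell by 0.44 and 0.34, and Rplp0, of the cytosolic stalk, rose by 0.47. The 3 lists were not tested against each other. Transcripts of mitochondrial DNA were not analysed here.

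Marker genes of other cells moved on the same arrays. Of 13 skeletal muscle genes, from a tissue rich in mitochondria, 12 were tested and all 12 fell. The summed signal of all 13 was 320308 to 338793 at 7 weeks and 114958 to 120029 at 36 weeks. All 11 granulocyte genes rose, and their summed signal was 49689 to 55069 at 7 weeks and 695578 to 740877 at 36 weeks. Of 14 tested cochlear genes 11 fell. The summed signal of all 18 cochlear genes on the array, tested or not, was 242164 to 249910 at 7 weeks and 59948 to 61552 at 36 weeks. Coch and Otos had the largest signals in that sum, with means of 82144 and 73912 at 7 weeks. Markers of mucosal glands (6 of 6 tested), brain (6 of 7) and pituitary (3 of 3) rose, and none of the tested genes of these lists fell. The summed signal of the mucosal gland list was 68913.5 to 70200.5 at 7 weeks and 447249.8 to 483814.5 at 36 weeks. For the brain list it was 32599.9 to 33104.1 and then 58543.0 to 59660.7. For the pituitary list it was 5481.3 to 6128.4 and then 71896.5 to 77831.9. The brain gene Snap25 did not pass (-0.06 ± 0.06). Slc1a2 of the brain list and Tshb of the pituitary list were below the signal filter. The part of any of these in the falls of the ribosomal genes was not tested. In whole tissue, fewer cells of a type, less RNA per cell and a changed mix of tissues in the samples cannot be told apart.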

How the data were processed

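Biotin-labelled cRNA of 6 cochlea samples went onto 6 arrays, as the labels' protocols state. The authors deposited linear intensity values of 22626 probe sets, on a common scale as the values show. The summary software was not given in the sources used here, and no scanner files or scan dates were used. Gene symbols came from GEO's platform annotation: 20380 had 1 symbol, 691 several and 1555 none.

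The scale was log2(signal + 50), on which changes of dim probe sets are understated. The 13575 probe sets with a mean above the 40th percentile were fitted by limma 3.58.1 in R 4.3.3 (lmFit, then eBayes with an intensity trend), unpaired as in the series design, two-sided, with Benjamini-Hochberg adjustment over all of them and a threshold of 0.05. The code was tested on simulated data. Figures used Python 3.11.15 and matplotlib 3.10.9. An exact permutation test of 3 against 3 arrays cannot go below 0.1 and was not used. The number of arrays limits the precision.

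The genes, lists and tests were chosen with earlier results of these data known. Named with values by array were the 6 members of each subunit with the smallest p in each direction past the threshold, those nearest the threshold, any gene with probe sets past it in opposite directions (there was none), Mrps7, Mrps2, Mrpl12 and Mrps12, and the 3 smallest p of each other list. Alternatives were other offsets, scalings and filters, no trend, a replicate block, each array left out, all probe sets of a gene averaged, fold minimums and other subunit groupings. Leaving out the 7 members whose probe set can bind related transcripts (names ending in _x_at or _s_at) was chosen after seeing the data. Marker lists of erythroid cells, bone and brown fat went both ways, with 1, 3 and 1 genes lower and 1, 1 and 2 higher of 4, 5 and 4 tested.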

Additional observations from a re-analysis of the deposited data

How the results depend on the processing

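Under every alternative run, 0 members rose. Leaving out 1 array at a time, 10 to 14 members fell, and their median difference ran from -0.17 to -0.11 (large minus small subunit 0.01 to -0.10). In these fits 13.5% to 15.1% of all tested probe sets fell. The lowest count, 10 of 74, came without array 3 of 7 weeks, where 14.9% of all tested probe sets fell. Centring arrays on their median moved the median of all tested probe sets from 0.02 to -0.09 and the share of lower calls from 51.7% to 64.6%. With it 18 of 74 members fell, against 22.5% of all tested probe sets. The members' median was then -0.24, in both cases 0.16 below all tested probe sets. With centring 8 companion genes of mitochondrial gene expression fell in place of 5. Quantile normalization gave a median of -0.17. A difference of at least 1.5-fold in all 9 pairs of arrays left 3 members (Mrps6, Mrpl18 and Mrpl42), and a 1.5-fold mean left 9. Among genes without a bacterial counterpart the medians of large minus small subunit differed by 0.0278, the opposite sign to -0.04 for all. With all probe sets of a gene averaged, 10 of 66 members fell, 8 of them shared with the 15, against 16.4% of all tested genes. The replicate block gave 14, of which 13 were shared, against 16.4% of all tested probe sets. Same-numbered arrays had correlated deviations of 0.05, -0.01 and 0.00, so the numbers were not taken as pairs. Without probe sets that can bind related transcripts, 13 of 67 fell, against 17.3% of all tested probe sets. Offsets of 1 and 16 left the count at 15, while 17.2% and 17.3% of all tested probe sets fell. No filter and no trend each gave 13, against 9.99% and 15% of all tested probe sets. The filter at the 60th percentile gave 14 of 65, where 23.3% of all tested probe sets fell. Members' SEs of 0.08 to 0.32 mean that differences near the median of -0.14 could not pass for single genes.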

Other observations

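Slc5a3, which encodes a myo-inositol transporter and starts within the same 300-base promoter window as Mrps6, on the same strand in RefSeq, moved against it. Its signals were 574.3, 587.5 and 486.9 at 7 weeks and 836.3, 972.9 and 797.7 at 36 weeks, with no overlap, and it rose by 0.62 ± 0.21 (limma adjusted p of 0.0466), while Mrps6 fell by 1.17. The mean of Slc5a3 at 7 weeks, 549.6, was close to the filter signal of 560.7, and its adjusted p was close to the threshold. Slc5a3 was looked up after the fall of Mrps6 was seen.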
